A study of Mus musculus with 20 samples.

Results

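The genes described here include the regulators of body iron balance (Hfe, Hamp, Hjv, Bmp6 and Tmprss6). The others encode proteins that carry iron (transferrin), oxidize it (Cp and Heph), or bind heme (Hpx) or hemoglobin (Hp). Their probe sets were taken from the platform annotation by gene symbol, whatever their values, which gave 20 of 45037 tested probe sets. Of these, 19 carry 1 gene symbol and represent 9 of the 10 genes: 8 for Cp, 2 each for Hfe, Hamp and Hjv, and 1 each for Bmp6, Tmprss6, Heph, Hpx and Hp. Hjv is listed elsewhere as Hfe2. The remaining probe set is annotated to both Trf, the mouse symbol of transferrin, and Srprb, a subunit of the signal recognition particle receptor, so its values cannot be assigned to transferrin alone.

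Body iron is set by hepcidin, a peptide hormone made by hepatocytes from the Hamp gene, which binds the iron exporter ferroportin and lowers iron entry into plasma. Hepcidin transcription responds to BMP6 through BMP receptors and SMAD proteins, with hemojuvelin (Hjv) as a coreceptor, HFE as a further activator and the protease TMPRSS6 as an inhibitor that cleaves hemojuvelin. Iron in plasma is bound by transferrin after oxidation by ceruloplasmin (Cp) or hephaestin (Heph), while haptoglobin (Hp) binds free hemoglobin and hemopexin (Hpx) binds free heme. None of these mRNAs has a well established iron-responsive element (IRE), the RNA hairpin that iron regulatory protein 1 (IRP1) binds.

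The study mixed tissue RNA of C57BL6/J mice of both sexes with recombinant His-tagged IRP1 and a rabbit anti-IRP1 antibody, and measured the recovered RNA on Affymetrix Mouse Genome 430 2.0 arrays. Control reactions held the same RNA and antibody without IRP1. There were 2 IRP1 reactions and 2 control reactions for each of 5 tissues, 20 arrays in all. Mice for duodenum, liver and spleen were weaned onto food with under 10 mg iron in each kg and kept on it for 21 days. Those for bone marrow and brain were 8 to 10 weeks old and ate an iron-normal diet. Diet and age therefore cannot be told apart from tissue in any comparison that crosses these groups. RNA of several mice was pooled (6 mice for bone marrow and for brain, 4 named for a duodenum sample), and each reaction took 50 µg of it. P-values therefore do not measure the spread between single animals, and whether the 2 reactions of a tissue drew on 1 RNA pool or on 2 is not given in the sources used here. The IRP1 was made in bacteria and added to purified RNA, so the reactions report binding in the tube and not in the tissue.

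Values are log2 signals per probe set as deposited, on which 1 unit is a doubling. Array medians lay between 5.50 and 5.62, and the lowest and highest values of any array were 2.63 and 15.35. Arrays of the same tissue correlated at r = 0.978 to 0.994, and arrays of different tissues at 0.745 to 0.951. Marker genes went with the tissue labels: 12 hepatocyte markers averaged 12.69 to 13.43 on the liver arrays and at most 7.60 elsewhere, and 9 enterocyte markers 11.36 to 11.59 on the duodenum arrays and at most 8.37 elsewhere. Spleen arrays led for 8 B and T cell markers, bone marrow arrays for 10 markers of neutrophil precursors and brain arrays for 8 neuron markers. Pancreatic acinar markers averaged 12.37 to 14.20 on the duodenum arrays and 9.16 to 10.08 on the spleen arrays. The part of the RNA of adjoining tissue in the levels below was not tested. In whole tissue, fewer cells of a type and less RNA per cell cannot be told apart.

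Tissue levels were read from the control reactions, which recover RNA without added IRP1. They measure what was carried along in the precipitate, and not the tissue's total RNA directly. The level differed between tissues for 19 of the 20 probe sets (limma F-test, adjusted p under 0.05), where 63.1% of all probe sets did. The exception was the second Hamp probe set, 1419196_at (adjusted p = 0.141). Control means were highest in liver for 14 of the 20, in spleen for 5 and in duodenum for 1. Counts here and below take probe sets of 1 gene separately, and 8 of the 20 belong to Cp. Between liver and duodenum 18 of the 20 differed (27.5% of all probe sets did), between liver and brain 18 (40.5%), and between liver and spleen 16 (38.4%), as did 16 between liver and bone marrow (32.5%). Levels of different probe sets were not set against each other, since each has its own probe affinity.

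**Figure D1:**
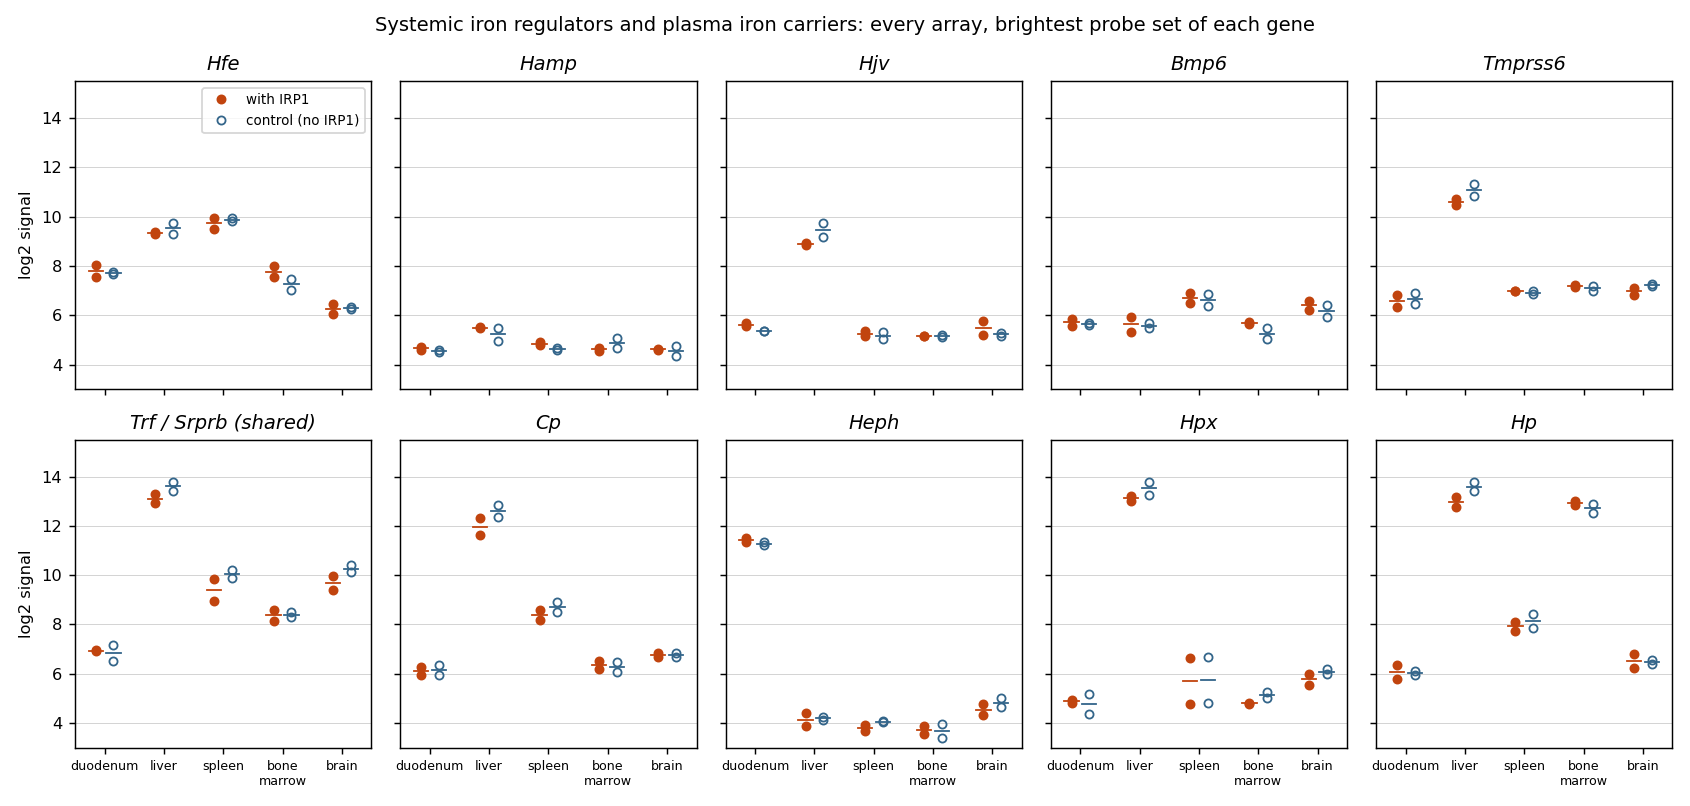
Log2 signal (vertical axis) of every array for the brightest probe set of each gene, by tissue, with IRP1 (filled) left of control (open); horizontal bars are means of 2 arrays. Hjv, Tmprss6, Cp and Hpx stand far above the other tissues in liver and Heph in duodenum, Hp is bright in both liver and bone marrow, and the 2 reactions of a tissue lie close together.

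Among the regulators, hemojuvelin (Hjv), a membrane-anchored coreceptor for BMP ligands, had a liver signal far above every other tissue. Probe set 1454137_s_at read 8.93 and 8.83 with IRP1 in liver, against 9.76 and 9.18 in the liver controls. The other 16 arrays read 5.05 to 5.77. In the control reactions liver exceeded duodenum, next in order, 17.4-fold (log2 4.12, SE 0.20, adjusted p = 6.17e-11), and 9.67-fold in the IRP1 reactions, while duodenum, brain, spleen and bone marrow did not differ beyond their spread. The dimmer probe set 1429223_a_at gave the same order of liver over all others, at 6.78 and 6.68 with IRP1 and 8.02 and 7.74 in controls, with 3.24 to 3.60 on the other 16 arrays.

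TMPRSS6, also called matriptase-2, is the liver protease that limits hepcidin. Its probe set read 10.47 and 10.71 with IRP1 in liver, against 11.33 and 10.83 in the liver controls. All other arrays fell between 6.34 and 7.27. Liver exceeded brain, the next tissue, 14.5-fold in the control reactions (log2 3.86, SE 0.21, adjusted p = 9.24e-11).

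HFE, a relative of MHC class I proteins that is mutated in hereditary hemochromatosis, was bright in spleen as well as liver. Probe set 1422645_at read 9.52 and 9.93 with IRP1 in spleen, against 9.83 and 9.93 in the spleen controls. Liver read 9.30 and 9.36 with IRP1, against 9.74 and 9.31 in controls. The difference between spleen and liver, log2 0.35 (SE 0.23, adjusted p = 0.234), was within the spread. Both exceeded duodenum, by 4.49-fold for spleen and 3.52-fold for liver. Control means were 7.71 in duodenum, 7.26 in bone marrow and 6.31 in brain. Duodenum and bone marrow did not differ beyond their spread (adjusted p = 0.159), whereas bone marrow exceeded brain 1.94-fold. The second Hfe probe set, 1450702_at, had spleen and liver on top too (8.02 and 7.81 in controls) but did not separate the lower 3 tissues.

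BMP6, the ligand whose loss in mice lowers hepcidin, had a low signal in every tissue. It was highest in spleen, at 6.52 and 6.92 with IRP1 and 6.88 and 6.38 in controls. Brain followed at 6.60 and 6.23 with IRP1 and 5.94 and 6.43 in controls, and the arrays of the 2 tissues overlapped (log2 0.44, adjusted p = 0.201). Liver, where hepcidin is made, read 5.32 and 5.94 with IRP1 and 5.69 and 5.47 in controls. Spleen exceeded liver 2.06-fold in the control reactions (adjusted p = 0.00328), a call lost without spleen control replicate 1 (1.73-fold, adjusted p = 0.0519). Bone marrow had the lowest control mean, 5.25, but did not differ beyond the spread from liver (adjusted p = 0.362) or duodenum (adjusted p = 0.31). With IRP1 its mean was 5.68, against 5.63 in liver.

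The hepcidin gene itself gave little signal. The brighter probe set, 1419197_x_at, read 5.51 and 5.48 with IRP1 in liver, against 5.48 and 4.97 in the liver controls. The other 16 arrays read 4.37 to 5.07. These and the liver values all lay below the median of their array (5.55 to 5.62 on the liver arrays), so the liver signal was a weak one. In the control reactions liver exceeded duodenum 1.59-fold (adjusted p = 0.0131), brain 1.58-fold and spleen 1.52-fold, and did not differ from bone marrow beyond the spread (log2 0.37, adjusted p = 0.162). Without liver control replicate 1 these 3 calls were lost, at 1.33-fold over duodenum (adjusted p = 0.172), 1.32-fold over brain (0.143) and 1.27-fold over spleen (0.213). All values of this probe set lay under 6, so raising values under log2 6 to 6 left no difference by construction. Of 28 alternatives, that one included, 4 lost the call over duodenum, 3 that over brain and 6 that over spleen. Most of the 28 left out an array of neither control group compared, which cannot change the fold. The call over duodenum was also lost without either duodenum control array (1.62- and 1.56-fold). That over spleen was lost without either spleen control array (1.48- and 1.55-fold), and that over brain without brain control replicate 1 (1.37-fold). In the IRP1 reactions the difference between liver and bone marrow was log2 0.88 (adjusted p = 0.00111), and without liver control replicate 2 it was 0.62 in the control reactions (adjusted p = 0.0373). Probe set 1419196_at read 4.81 and 4.89 with IRP1 and 4.42 and 4.49 in controls in liver. No detection call was used, so the array values do not say whether hepcidin mRNA was present in this iron-poor liver.

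Hepcidin has a near copy in the mouse, Hamp2, which lies close to it on chromosome 7 with 1 annotated gene between them in the RefSeq annotation of GRCm38.p6. Mouse Hamp2 is not known to act on iron. Probe sets ending in _x_at can hold probes that match related transcripts, so signal of the 2 genes may be mixed. Hamp2 probe set 1436643_x_at read 9.31 and 9.08 with IRP1 in liver, against 8.62 and 8.10 in the liver controls, and 6.39 to 7.62 on the other 16 arrays. The IRP1 arrays lay above the controls in liver, but the change of log2 0.84 (SE 0.26) was not called (adjusted p = 0.188). The other Hamp2 probe set, 1456289_at, read 4.56 to 5.42 on all 20 arrays.

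Among the carriers, transferrin could be followed only through the probe set it shares with Srprb; the RefSeq annotation has the 2 genes next to each other on chromosome 9 with 0 genes between. It read 12.92 and 13.28 with IRP1 in liver, against 13.78 and 13.41 in the liver controls. Brain read 9.38 and 9.96 with IRP1 and 10.42 and 10.12 in controls, and spleen 8.95 and 9.85 with IRP1 and 9.86 and 10.22 in controls. Liver exceeded brain 10.0-fold in the control reactions (adjusted p = 6.79e-08), and brain and spleen did not differ beyond the spread (adjusted p = 0.641). Bone marrow (control mean 8.40) and duodenum (6.84) each differed from the tissue above them in this order.

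Hephaestin, the copper oxidase of the basolateral membrane of enterocytes that works beside ferroportin, was bright in duodenum. Its probe set read 11.34 and 11.52 with IRP1 in duodenum, against 11.35 and 11.20 in the duodenum controls. The other 16 arrays read 3.38 to 5.0. Duodenum exceeded brain, the next tissue, 87.1-fold in the control reactions (log2 6.44, SE 0.22, adjusted p = 4.72e-13). The brain mean, 4.83, lay below the array medians, and with values under log2 6 raised to 6 the difference was 38.7-fold. The 4 tissues other than duodenum were too dim for an order among them to be given.

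Haptoglobin, which captures hemoglobin released from red cells, was bright in both liver and bone marrow. It read 12.75 and 13.18 with IRP1 in liver, against 13.76 and 13.43 in the liver controls. Bone marrow read 12.84 and 13.01 with IRP1, against 12.50 and 12.91 in the bone marrow controls. In the control reactions liver exceeded bone marrow by log2 0.89 (adjusted p = 0.0121). That call was lost without liver control replicate 1 (0.72, adjusted p = 0.104) and without bone marrow control replicate 1 (0.69, adjusted p = 0.116), and in the IRP1 reactions the difference was 0.04 (adjusted p = 0.922). Bone marrow exceeded spleen, next in order with a control mean of 8.13, 23.8-fold. Neutrophil precursor markers averaged 13.25 to 13.69 on the bone marrow arrays and at most 8.21 elsewhere. Hepatocyte markers averaged 5.31 to 5.77 on the bone marrow arrays, against 12.69 to 13.43 on the liver arrays. The part of either cell type in the haptoglobin signal was not tested.

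Hemopexin, the plasma protein that delivers heme to the liver, read 13.02 and 13.20 with IRP1 in liver, against 13.79 and 13.26 in the liver controls. Liver exceeded brain 173-fold in the control reactions (log2 7.44, SE 0.52, adjusted p = 2.79e-09), and no pair of the lower 4 tissues was called. Brain lay 2.46-fold above duodenum (adjusted p = 0.0576), a difference that 8 of 29 alternatives called, with the lowest adjusted p, 0.000644, without the spleen arrays with low hybridization controls. Without those arrays brain was also called above bone marrow (1.92-fold, adjusted p = 0.00762) and above spleen (2.43-fold, adjusted p = 0.0046), and without spleen control replicate 1 spleen was called above duodenum (3.70-fold, adjusted p = 0.011). The liver values of hemopexin lie close to the top of the scale, which compresses fold changes of liver over the other tissues. In spleen the replicates stood apart: replicate 1 read 4.78 with IRP1 and 4.80 in the control, and replicate 2 read 6.62 with IRP1 and 6.67 in the control. All 12 hepatocyte markers were higher in spleen replicate 2 than in replicate 1 in both reactions, with medians of 1.34 with IRP1 and 1.45 in controls on the log2 scale. The hybridization controls of the replicate 2 spleen arrays lay 1.06 (IRP1) and 1.26 (control) below the median array. In brain hepatocyte markers moved the other way, with medians of replicate 2 minus replicate 1 of -0.83 with IRP1 and -0.72 in controls, while hemopexin differed by 0.48 with IRP1 and 0.23 in controls. The part of liver RNA or of hybridization in the spleen hemopexin values was not tested.

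**Figure D2:**
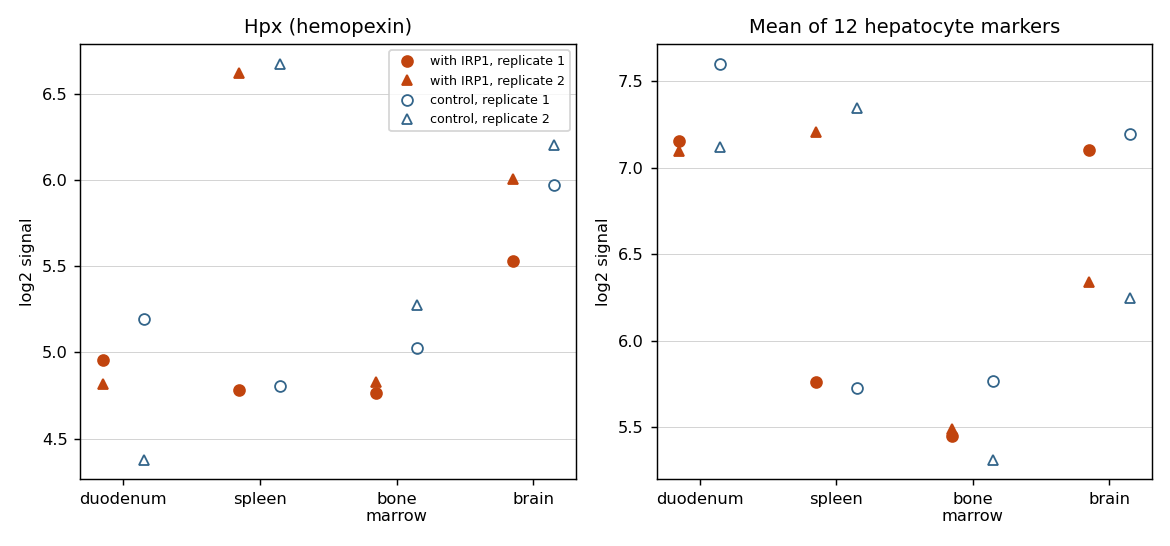
Log2 signal of hemopexin (left) and mean log2 signal of 12 hepatocyte markers (right) on each array of the tissues other than liver, with IRP1 (filled) left of control (open), circles for replicate 1 and triangles for replicate 2. In spleen both panels show replicate 2 above replicate 1 in both reactions (6.62 and 6.67 against 4.78 and 4.80 for hemopexin).

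Ceruloplasmin, the plasma copper oxidase, was measured by 8 probe sets, which disagreed about the tissue order. The brightest, 1417494_a_at, read 11.64 and 12.31 with IRP1 in liver, against 12.83 and 12.37 in the liver controls. Spleen read 8.57 and 8.17 with IRP1 and 8.91 and 8.51 in controls, and the other 12 arrays 5.95 to 6.86. For 6 of the 8 probe sets liver exceeded spleen in the control reactions, by log2 2.10 to 4.38. The lowest of these was for 1441326_at (5.47 in liver controls and 3.38 in spleen controls). All its values lay under 6, so with values under log2 6 raised to 6 its difference was 0 by construction. For the other 2 spleen was on top. Probe set 1417497_at read 7.45 and 7.80 with IRP1 in spleen and 7.95 and 8.00 in spleen controls, and 6.51 and 6.89 with IRP1 in liver and 7.05 and 7.04 in liver controls. Probe set 1448735_at read 7.65 and 7.55 with IRP1 in spleen and 7.70 and 7.64 in spleen controls, and 6.04 and 5.98 with IRP1 in liver and 6.49 and 6.40 in liver controls. Spleen exceeded liver by log2 0.93 for 1417497_at (adjusted p = 0.000435) and by 1.23 for 1448735_at (adjusted p = 1.09e-05), with all 4 spleen arrays above all 4 liver arrays for each. Both calls held in all alternatives run, at 0.65 to 0.95 and at 0.99 to 1.59. Over the 20 arrays these 2 probe sets correlated with the brightest at r = 0.55 and 0.42, against 0.93 or more for the other 5. Ceruloplasmin is known to have a secreted and a membrane-anchored form; which transcripts each probe set detects was not analysed here.

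**Figure D3:**
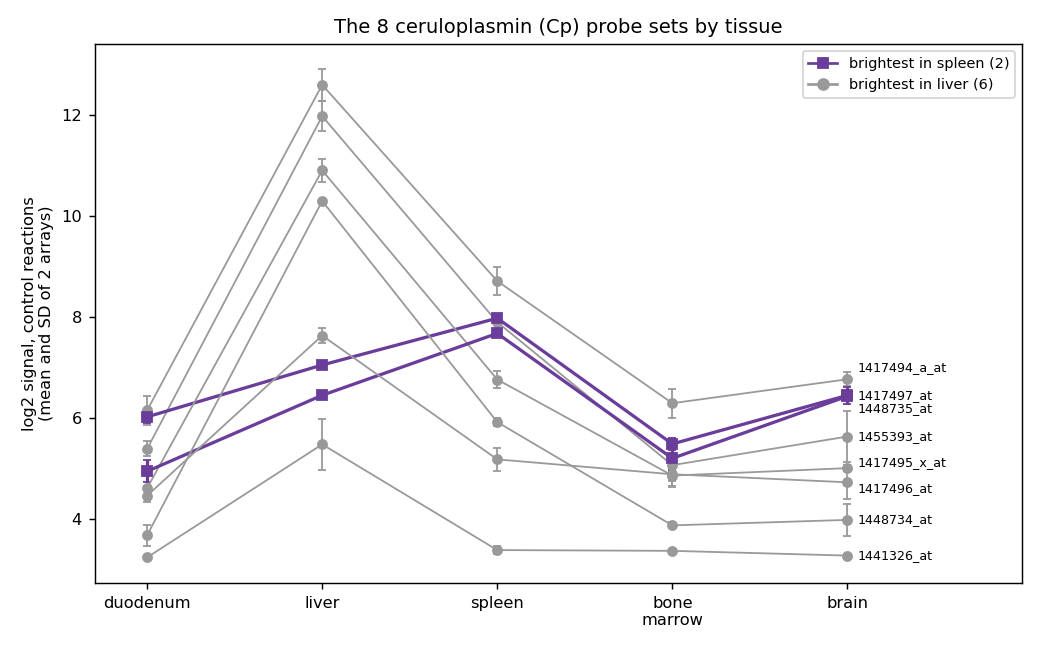
Mean log2 signal in the control reactions (vertical axis, error bars SD of 2 arrays) of the 8 ceruloplasmin probe sets in the 5 tissues. Grey circles mark the 6 probe sets with liver on top and purple squares the 2 with spleen on top, 7.97 and 7.67 in spleen against 7.04 and 6.44 in liver.

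By Pearson correlation over the 20 arrays, the genes most like each member were the following, given as a description of arrays that share tissues. Hjv went with Cyp2b13, Ces1g and C4bp (r = 0.994 to 0.995), and Tmprss6 with Hgd, Keg1 and Slc10a1 (each r = 0.992). Hpx went with Fgb, Mup3 and Pon1 (r = 0.993 to 0.994), Cp with Mrap, Sult1a1 and Pglyrp2 (0.978 to 0.987), and Heph with Ido1, Degs2 and Slc9a2 (0.994 to 0.995). For these 5 genes 260 to 465 of 18192 genes correlated above 0.9. Far fewer did for Hfe (29 genes, led by Cxcl9, Dnase1l3 and C6 at 0.953 to 0.962) and for Hp (22 genes, led by Wfdc21, Lrg1 and Aqp9 at 0.969 to 0.987). Hamp and Bmp6 spanned too narrow a range for this measure, and the shared transferrin probe set was left out.

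The comparison of IRP1 with control reactions asks whether IRP1 held these mRNAs. In the mean of the 5 tissues, 0 of the 20 probe sets were called higher, where 0.773% of all probe sets were, and 0 were called lower, where 1.03% were (limma, adjusted p under 0.05). At an unadjusted p under 0.05 there were 2, the dimmer Hjv probe set and that of Trf and Srprb, both lower, against 16.4% of all probe sets. The median change of the 20 was -0.11, against -0.01 for all probe sets. The changes ran from -0.33 for Trf and Srprb (95% interval -0.61 to -0.05, adjusted p = 0.216) to 0.18 for Bmp6 (-0.06 to 0.41, adjusted p = 0.475). The interval of Bmp6 reached furthest up, to 1.33-fold, so larger mean enrichment lay outside the interval of each of the 20.

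For scale, 6 mRNAs with a known IRE were all called higher in the mean: Alas2 by log2 2.22, Tfrc by 2.19, Slc11a2 by 1.84, Slc40a1 by 1.36, Epas1 by 1.35 and Fth1 by 0.84. Both IRP1 arrays lay above both controls in each of the 5 tissues for each of them. The lowest interval bound among these, 0.62 for Fth1, lay above the highest upper bound among the member probe sets, 0.41. The 2 sets were chosen from knowledge of IREs with results of these arrays known.

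**Figure D4:**
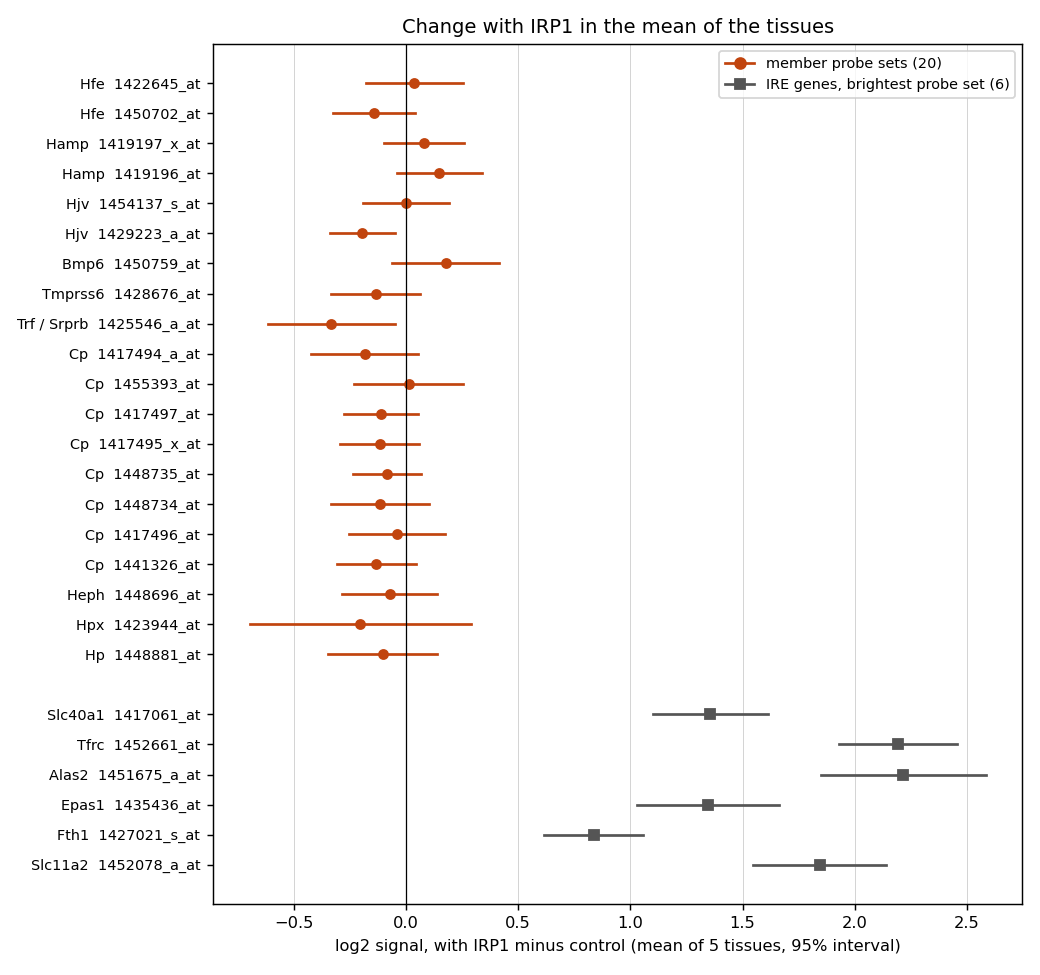
Log2 signal with IRP1 minus control, mean of 5 tissues with 95% intervals, for the 20 member probe sets (circles) and the brightest probe set of 6 IRE genes (squares). The member probe sets lie between -0.33 and 0.18 and the IRE genes between 0.84 and 2.22.

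A gene that is near the lower end of the scale in most tissues can show little change in the mean, so each was also read in the tissue where its control signal was highest. Hfe changed by -0.16 in spleen (95% interval -0.64 to 0.32), Bmp6 by 0.09 in spleen (-0.44 to 0.62) and Hamp by 0.27 in liver (-0.13 to 0.67). Heph changed by 0.16 in duodenum (-0.32 to 0.63), Hpx by -0.42 in liver (-1.52 to 0.68), and Trf and Srprb by -0.49 in liver (-1.12 to 0.14). Each interval rests on a spread shared by all groups, so that of Hpx does not measure its liver spread. The Hpx SDs were 1.30 with IRP1 and 1.32 in controls in spleen, against 0.13 and 0.37 in liver. The liver intervals lay below 0 for the brighter Hjv probe set (-1.01 to -0.16), Tmprss6 (-0.93 to -0.05), the brightest Cp probe set (-1.16 to -0.10) and Hp (-1.17 to -0.09), none with an adjusted p under 0.05. For haptoglobin in bone marrow the change was 0.22 (-0.32 to 0.76). The 6 IRE genes had median changes of 1.59 in liver, 1.30 in spleen and 1.33 in duodenum. The lowest of them changed by 0.54 in liver, 0.77 in spleen and 0.21 in duodenum. Those liver and duodenum values lie within some of the intervals above. The intervals in single tissues therefore do not set every member apart from every IRE gene.

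Single tissues gave 1 call of a member probe set. In duodenum 0 were called higher (0.0799% of all probe sets) and 0 lower (0.0244%), in spleen 0 and 0 (0.0688% and 0.0333%), in bone marrow 0 and 0 (0.127% and 0.00444%), in brain 0 and 0 (0.0866% and 0.0377%), and in liver 0 higher (0.091%). At an unadjusted p under 0.05 there were 0 in duodenum (4.08% of all probe sets), 9 in liver (13.5%), 1 in spleen (9.52%), 1 in bone marrow (4.99%) and 0 in brain (6.57%). Most of the 9 in liver were probe sets of Cp and Hjv. In liver 1 was called lower, where 0.0933% of all probe sets were. It was the dimmer Hjv probe set, 1429223_a_at, whose values are given above: the signal with IRP1 minus that of the controls was -1.15 on the log2 scale (95% interval -1.48 to -0.83, SE 0.15, adjusted p = 0.0053). The brighter Hjv probe set changed by -0.59 in liver (adjusted p = 0.223). The call was lost without liver control replicate 1 (-1.01, adjusted p = 0.101), without liver IRP1 replicate 2 (-1.10, adjusted p = 0.0514) and when the liver arrays were fitted alone (adjusted p = 0.112). Elsewhere, Hfe probe set 1422645_at read 7.99 and 7.54 with IRP1 in bone marrow, against 7.03 and 7.49 in controls, a change of 0.50 (interval 0.02 to 0.99, adjusted p = 0.964) that its second probe set did not share. Of the 6 IRE genes, 2 were called higher in duodenum, 3 in liver, 1 in spleen, 6 in bone marrow and 3 in brain. A missing call in a single tissue therefore does not show lack of enrichment.

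Whether the change with IRP1 differed between tissues was tested directly, and 0 of the 20 passed the F-test, which 0.0111% of all probe sets did. The lowest adjusted p was 0.247, for the dimmer Hjv probe set.

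Liver was the tissue in which most members lay lower with IRP1. Both IRP1 arrays lay below both controls for 13 of the 20 in liver, where 26% of all probe sets did, and above for 2, both of Hamp, where 19.2% did. In spleen these counts were 5 below (22.1%) and 2 above (17.6%), in brain 5 (16.9%) and 0 (16.7%), in bone marrow 1 (11.8%) and 3 (19%), and in duodenum 0 (21.6%) and 3 (16.6%). The median change of the 20 in liver was -0.43, against -0.02 over all probe sets. Cp and Hjv gave most of the 13 probe sets that lay below in liver, so the count is not of 13 genes.

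In liver the change with IRP1 went with brightness over all probe sets. Their median change was 0.05 for control means under 6, -0.10 from 6 to 8, -0.31 from 8 to 10, -0.43 from 10 to 12 and -0.43 from 12 up. The 5 member probe sets under 6 had a median of 0.05, the 5 from 6 to 8 of -0.35 and the 2 from 8 to 10 of -0.39. The 4 from 10 to 12 had a median of -0.53 and the 4 from 12 up a median of -0.56. The called Hjv probe set, with a control mean of 7.88 and a change of -1.15, lies in the band from 6 to 8. Of the 12 hepatocyte markers, all changed by less than 0 in liver, with a median of -0.36 and 0 called. Their mean level was 12.69 and 13.01 with IRP1, against 13.43 and 13.07 in the liver controls. The array standard deviations were 1.90 and 1.95 with IRP1, against 2.11 and 1.99 in the liver controls. Spleen and brain had the same downward course, with median changes over all probe sets of 0.07 under 6 and -0.28 from 12 up in spleen, and of 0.04 and -0.36 in brain. Duodenum ran from -0.01 to -0.08. In bone marrow the order was the opposite, with a median change of 0.21 from 12 up. The part of brightness in the members' changes in liver, spleen and brain, that of Hjv included, was not tested.

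Of the 24 further genes of hepcidin signalling on the list, 22 had a probe set of their own; Gdf15 and Fam132b (erythroferrone) did not. In the mean of the tissues 0 were called higher (0.773% of all probe sets were) and 1 lower (1.03%), with 4 at an unadjusted p under 0.05 (16.4%), and the median change was -0.09, against -0.01 for all probe sets. The lower one was Smad5, a transcription factor that BMP receptors phosphorylate (-0.45, SE 0.09, adjusted p = 0.0164). That call was lost without duodenum control replicate 1 (-0.41, adjusted p = 0.0517) and without the 2 spleen arrays with low hybridization controls (-0.44, adjusted p = 0.0658). Single tissues gave 0 calls. The largest change was in Il6ra, the interleukin-6 receptor subunit, at -1.09 in liver (adjusted p = 0.229).

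All 16 genes on the list of plasma and heme carriers and receptors were measured, and 0 were called in the mean (0.773% of all probe sets were called higher and 1.03% lower) or in any tissue. In the mean 1 had an unadjusted p under 0.05, against 16.4% of all probe sets, and the median change was 0.00. The largest mean changes were -0.36 (adjusted p = 0.0861) for Lrp1, the receptor that takes up heme bound to hemopexin, and -0.35 (adjusted p = 0.81) for Alb, serum albumin. In single tissues they were Hamp2 in liver, given above, and Hmox1, the heme-degrading oxygenase, at -0.81 in spleen (adjusted p = 0.189).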

How the data were processed

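IRP1-bound RNA and control precipitates of 5 mouse tissues were measured on 20 arrays in 10 groups of 2. The deposited values are log2 signals per probe set. Per the submitters' processing notes the tools were RMA, MAS5 and GCOS; the series' design text gives RMA or quantile-normalized MAS5 as alternatives, and which made the deposited table is not given in the sources used here. No further normalization or filter was applied. The table has 45101 probe sets, of which 64 are Affymetrix controls and were dropped. The platform annotation, which can be old, gave 1 symbol to 34945 of the 45037 probe sets, several to 932 and none to 9160.

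A linear model with 10 group means was fitted with limma 3.58.1 (lmFit, eBayes) in R 4.3.3, with 10 residual degrees of freedom. The contrasts compared IRP1 with control per tissue and in the mean of the tissues, with F-tests of differences between tissues, and pairwise differences of control levels. Two-sided p-values were adjusted by Benjamini-Hochberg over all 45037 probe sets, and a call needs an adjusted p under 0.05. Intervals are 95% intervals of the fit. The number of arrays limits the precision. The calls were tested on simulated data.

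The probe set brightest on average over the arrays stood for each gene, and its other probe sets are given where they differed. Of the 2 pathway lists, called genes were named, or else the 2 with the largest change. For members whose control means span at least 2 log2 units, the 3 most correlated genes were named. Members, lists and tests were chosen with earlier results of these data known. Alternatives were 2 normalizations, 2 treatments of dim values, array weights, an intensity trend, a replicate block, tissues fitted alone, other probe sets, levels from the IRP1 reactions, and leaving out arrays. Gene neighbours came from RefSeq (GRCm38.p6), read with Python 3.11.15; figures used matplotlib 3.10.9. Promoter sequences are not reported here.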

Additional observations from a re-analysis of the deposited data

How the results depend on the processing

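The limits are 2 arrays a group, pooled RNA, diet and age that go with tissue, and a log2 scale that compresses changes at both ends. Of 1433 alternative values for 50 results, 1401 kept the verdict. For this a called result had to stay called in the same direction, and a count had to stay within 1.5 times. An uncalled result had only to stay uncalled, whatever its sign. For a result on a single tissue or a pair of tissues, leaving out an array of another tissue cannot change the size of a difference. Many of the alternatives are of this kind, so the total overstates how far the results were tried. In 289 alternatives for the mean change of a member gene, 0 were called and 23 had the other sign. The 6 IRE genes stayed called higher in the mean in each alternative run.

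The count of member probe sets called lower in liver, 1 in the report, was 0 with dim probe sets left out (14 members tested) and 0 with the tissue fitted alone, 3 with values under log2 6 raised to 6 (Hjv 1429223_a_at, Cp 1448735_at and Cp 1448734_at), and 0 to 1 when single arrays were left out. With values raised to 6, 2 member probe sets were called lower in the mean and 2 differed between tissues (Hjv 1429223_a_at and Cp 1448735_at each time), and with an intensity trend 1 differed between tissues (Hjv 1429223_a_at, adjusted p = 0.0449). Leaving out dim probe sets removed the called Hjv probe set itself, so the 0 there was set by the filter. Its means over the tissues, 4.10 with IRP1 and 4.30 in controls, lay below the array medians. Raising to 6 removes spread among dim values by construction. The cause of the other changes was not tested.

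Over all probe sets, 812 were called in the mean, 323 to 1813 when single arrays were left out (1813 without brain IRP1 replicate 2), and 348 without the spleen arrays with low hybridization controls. Same-numbered arrays of a tissue deviated together at r = 0.27 in duodenum, -0.07 in liver, 0.53 in spleen, -0.04 in bone marrow and 0.12 in brain, so the numbers were not taken to pair the arrays. In spleen, same-numbered arrays did deviate together. With the replicate block, 953 probe sets were called in the mean, the Hjv probe set stayed called in liver (adjusted p = 0.0249), and 0 member probe sets were called in the mean.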

Other observations

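Marker lists of cell types known to make some of these proteins give values that belong to no comparison above. BMP6 in liver is known to come from sinusoidal endothelium. The mean log2 signal of 8 endothelium markers was 7.62 to 7.68 with IRP1 and 7.70 to 8.10 in controls in liver, and 6.96 to 7.08 with IRP1 and 7.13 to 7.21 in controls in spleen. In brain it was 5.27 to 5.51 with IRP1 and 5.39 to 5.43 in controls, and on the duodenum and bone marrow arrays 5.56 to 6.05. For HFE, which Kupffer cells and other macrophages also express, 10 macrophage markers averaged 8.96 to 9.57 with IRP1 and 9.56 to 9.79 in controls in spleen, and 8.40 to 8.59 with IRP1 and 8.61 to 8.89 in controls in liver. They averaged at most 7.73 on the arrays of the other tissues. The part of either cell type in the Bmp6 or Hfe signal was not tested.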
